A study of Homo sapiens with 2 samples.

Results

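The polypyrimidine tract binding (PTB) protein family has 3 genes here, PTBP1, PTBP2 and PTBP3, taken by gene name from a table of transcript levels. They held 25 of its 95139 transcripts and 3 of its 20263 genes, with 14 transcripts of PTBP1, 4 of PTBP2 and 7 of PTBP3. The genes were picked because PTBP2 and PTBP3 were very low in one of the libraries, so their gene levels and the transcript shares drawn from the same contrast are descriptions and no test is attached to them. The RNA came from H9 cells, an established line of human embryonic stem cells. One library was made from cells treated for 48 h with small interfering RNA against HNRNPA1 (siHNRNPA1), which encodes the RNA-binding protein hnRNP A1, and one from cells given a control small interfering RNA for the same time (sicontrol). Each condition had 1 library, numbered 1 in the labels without saying whether the number stands for a culture or for the small interfering RNA used, so no difference below has a replicate check.

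PTB proteins bind pyrimidine-rich RNA through several RNA recognition motifs and mostly repress the inclusion of nearby exons. PTBP1 is found in most dividing cells, PTBP2 is best known from neurons and their precursors, and PTBP3 was first described in blood cells. PTBP1 is known to keep PTBP2 low by causing a short exon of the PTBP2 messenger RNA to be skipped, which shifts the reading frame and sends the RNA to nonsense-mediated decay (NMD), and PTBP1 limits its own level through the matching exon in the same way. Another PTBP1 exon, between the second and the third RNA recognition motif, is skipped or included in a long or a short form, which gives proteins with different linkers.

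The sequences on which the transcripts below differ are given from the GENCODE transcripts, on GRCh38. The alternative PTBP1 exon lies in the coding sequence on the plus strand of chromosome 19, at chr19:805492-805569. Its long form has 78 nt, and the capitals mark the first 21 nt, which the 57-nt form at chr19:805513-805569 lacks. Neither form nor skipping shifts the reading frame.

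PTBP1 78-nt exon: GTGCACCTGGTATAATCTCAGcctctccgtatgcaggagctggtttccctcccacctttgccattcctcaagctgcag

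Each of the 3 genes has a coding exon of 34 nt at the matching place, at chr19:807869-807902 (plus strand), chr1:96806419-96806452 (plus strand) and chr9:112231380-112231413 (minus strand). In PTBP1 and PTBP2 these are the exons of the known regulation described above, and since 34 is not a multiple of 3, leaving one out shifts the frame. Capitals mark the 19 of 34 bases that are the same in all 3 genes. PTBP1 and PTBP2 share 25 bases, PTBP1 and PTBP3 share 22, and PTBP2 and PTBP3 share 21.

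PTBP1 34-nt exon: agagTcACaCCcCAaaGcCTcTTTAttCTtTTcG
PTBP2 34-nt exon: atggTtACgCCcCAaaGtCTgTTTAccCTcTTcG
PTBP3 34-nt exon: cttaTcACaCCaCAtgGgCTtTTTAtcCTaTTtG

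In PTBP2 the transcripts also differ at the exon just before it, at chr1:96804785-96804939 on the plus strand. It has 155 nt in some transcripts, and 140 nt in those that lack the first 15 nt, shown in capitals.

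PTBP2 long exon: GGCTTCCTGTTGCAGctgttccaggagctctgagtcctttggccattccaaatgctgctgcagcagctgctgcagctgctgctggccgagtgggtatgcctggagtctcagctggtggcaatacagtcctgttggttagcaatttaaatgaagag

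Levels are given in FPKM (fragments scaled to transcript length and to the library's total), summed over the transcripts of a gene. Their intervals were scaled from the 95% exact Poisson limits of the gene's summed estimated counts. This leaves the differing transcript lengths out, so an interval can be too narrow where short entries with few counts hold much of the FPKM. The intervals cover counting error only. The library of siHNRNPA1 cells held 28147828 estimated counts and that of sicontrol cells 26680342. HNRNPA1 itself, whose reads can be divided with its many processed pseudogenes, had 179.9 FPKM in siHNRNPA1 cells and 663 FPKM in sicontrol cells. Of 11921 genes with a mean of at least 1 FPKM, 21.9% were at least 2-fold lower in siHNRNPA1 cells and 12.4% at least 2-fold higher, on the scale log2((siHNRNPA1 + 1)/(sicontrol + 1)) used for all folds. The median log2 fold of these genes was -0.13 as deposited and -0.28 in TPM, and 36.2% and 27.4% of the genes past 2-fold were higher. After scaling by the median ratio of the libraries the median was 0.00053 and 46.5% were higher.

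PTBP1, the widely expressed repressor, was by far the most abundant of the 3 genes in siHNRNPA1 cells and in sicontrol cells. It lies on chromosome 19 (797075 to 812327, plus strand). PTBP1 had 94.7 FPKM in siHNRNPA1 cells (92.7 to 96.8) and 131 FPKM in sicontrol cells (129 to 133). The siHNRNPA1 level was thus 72.3% of the sicontrol level, a log2 fold of -0.46, within 2-fold. In estimated counts PTBP1 had 7916 in siHNRNPA1 cells and 11326 in sicontrol cells.

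PTBP2, the neuronal paralog, was low in siHNRNPA1 cells and moderate in sicontrol cells. It lies on chromosome 1 (96721665 to 96823738, plus strand). PTBP2 had 0.680 FPKM in siHNRNPA1 cells (0.556 to 0.824) and 9.23 FPKM in sicontrol cells (8.66 to 9.82), so that 7.37% of the sicontrol level was present. Its log2 fold was -2.61. The estimated counts were 104 in siHNRNPA1 cells and 977 in sicontrol cells.

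PTBP3 had the lowest level of the 3 genes in siHNRNPA1 cells. It lies on chromosome 9 (112217716 to 112333667, minus strand). PTBP3 had 0.187 FPKM in siHNRNPA1 cells (0.138 to 0.246) and 14.2 FPKM in sicontrol cells (13.7 to 14.7), which leaves 1.32% of the sicontrol level. Its log2 fold was -3.68, and 4 of the 11921 genes had a lower one, against 76 for PTBP2. PTBP2 and PTBP3 were picked for very low levels, so these low ranks follow from the choice. PTBP3 had 50 estimated counts in siHNRNPA1 cells and 3111 in sicontrol cells.

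**Figure D1:**
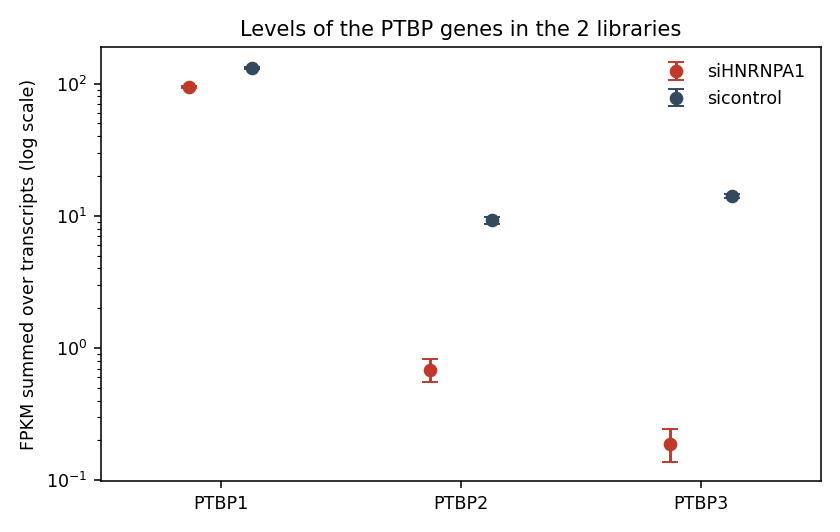
FPKM of PTBP1, PTBP2 and PTBP3 (log axis) in siHNRNPA1 cells (red) and sicontrol cells (dark), 1 library each. Bars are intervals for counting error, scaled from the 95% exact Poisson limits of the gene's summed counts. PTBP1 stands at 94.7 and 131 FPKM, PTBP2 at 0.680 and 9.23 FPKM and PTBP3 at 0.187 and 14.2 FPKM.

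The order of the paralogs differed between the libraries. In siHNRNPA1 cells PTBP2 was above PTBP3, and in sicontrol cells PTBP3 was above PTBP2. PTBP1 made up 99.1% of the summed FPKM of the 3 genes in siHNRNPA1 cells and 84.8% in sicontrol cells. PTBP2 made up 0.711% and PTBP3 0.195% of that sum in siHNRNPA1 cells, against 5.97% for PTBP2 and 9.18% for PTBP3 in sicontrol cells. In these bulk libraries fewer cells that express a gene and less RNA per cell cannot be told apart. The paralogs themselves can be, because their transcripts share no window of 50 bases. PTBP1 and PTBP3 also share no such window with any other GENCODE gene, and PTBP2 shares 0.489% of its windows.

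Base composition moved with the folds, and the paralogs differ in it. The leading transcript has a GC content of 36.9% in PTBP2 and of 36.7% in PTBP3, against 57.6% in PTBP1. With the genes cut into 5 groups of equal size by GC content, 48.7%, 33.9%, 17.8%, 6.92% and 2.01% were at least 2-fold lower in siHNRNPA1 cells, from the lowest GC content to the highest. PTBP2 and PTBP3 fall in the lowest group (30.2 to 42.0%), where the median log2 fold was -0.98. Within that group of 2384 genes 1 gene had a lower fold than PTBP3, and 38 genes, or 1.59%, a lower one than PTBP2. Both genes were picked for very low siHNRNPA1 levels and reach the mean of 1 FPKM only through sicontrol cells. Low ranks therefore follow from the choice and do not separate the 2 genes from an effect of base composition. PTBP1 falls in group 4 of 5 (53.8 to 59.8%), where the median log2 fold was 0.35 and 16.7% of 2383 genes had a lower fold than PTBP1. With a fit of the fold on GC content and length over all genes subtracted, PTBP1 stood at -0.64, PTBP2 at -1.62 and PTBP3 at -2.26. The part of base composition in the low PTBP2 and PTBP3 levels was not tested further.

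**Figure D2:**
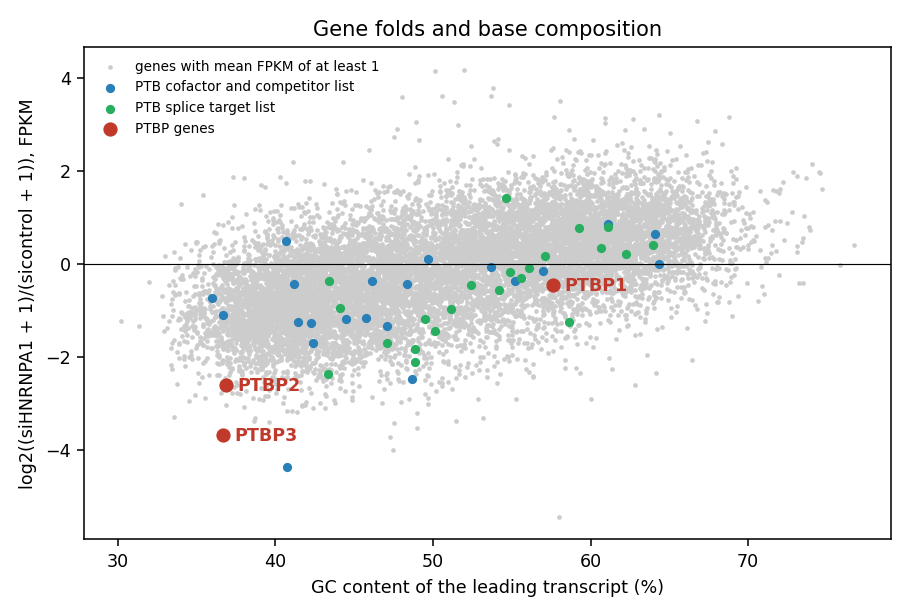
Log2 fold of FPKM (siHNRNPA1 over sicontrol, 1 added to each) against the GC content of each gene's leading transcript, for genes with a mean of at least 1 FPKM. PTBP2 and PTBP3 (red) lie at the low-GC end at -2.61 and -3.68, and PTBP1 at 57.6% GC and -0.46, with genes of the cofactor list in blue and of the splice target list in green (the overlapping entries of MATR3 are drawn as separate points).

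Within PTBP1 the transcripts did not move together. PTBP1-202, a coding transcript with the 78-nt exon that starts at the second exon of the others (799406 to 812222), had 36.2 FPKM in siHNRNPA1 cells and 88.8 FPKM in sicontrol cells, a log2 fold of -1.27. It was the leading PTBP1 transcript in each library, with 38.3% of the gene's FPKM in siHNRNPA1 cells and 67.8% in sicontrol cells. PTBP1-204, the coding transcript with the 57-nt form (797452 to 812312), had 20.1 FPKM in siHNRNPA1 cells and 3.89 FPKM in sicontrol cells, a log2 fold of 2.11. Its share of the gene was 21.3% in siHNRNPA1 cells and 2.97% in sicontrol cells, so that it was second in siHNRNPA1 cells. PTBP1-201, the coding transcript that skips the exon, had 9.60 FPKM in siHNRNPA1 cells and 14.6 FPKM in sicontrol cells, with shares of 10.1% and 11.2%.

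The share of PTBP1-202 differed by -29.5 percentage points. For comparison, 5715 genes reached 5 FPKM in both libraries and had 2 or more transcripts, and 40.6% of them had a transcript whose share differed by at least 20 points, so a difference of this kind was common in the table. PTBP1-203, which has the 78-nt exon and an upstream first exon, had 4.11 FPKM in siHNRNPA1 cells and 3.17 FPKM in sicontrol cells. PTBP1-221, in which the intron between the fifth and the sixth exon of PTBP1-203 is kept, had 0.114 FPKM in siHNRNPA1 cells and 3.23 FPKM in sicontrol cells. Of the 14 PTBP1 transcripts, 2 stood 2-fold or more lower (PTBP1-202 and PTBP1-221) and 2 stood 2-fold or more higher (PTBP1-204 and PTBP1-214). PTBP1-214, an entry of 749 nt whose 3′ end is not annotated, had 12.0 FPKM in siHNRNPA1 cells and 3.58 FPKM in sicontrol cells. Over all transcripts with a mean of at least 1 FPKM, 23.4% were lower by 2-fold or more and 21.3% higher.

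**Figure D3:**
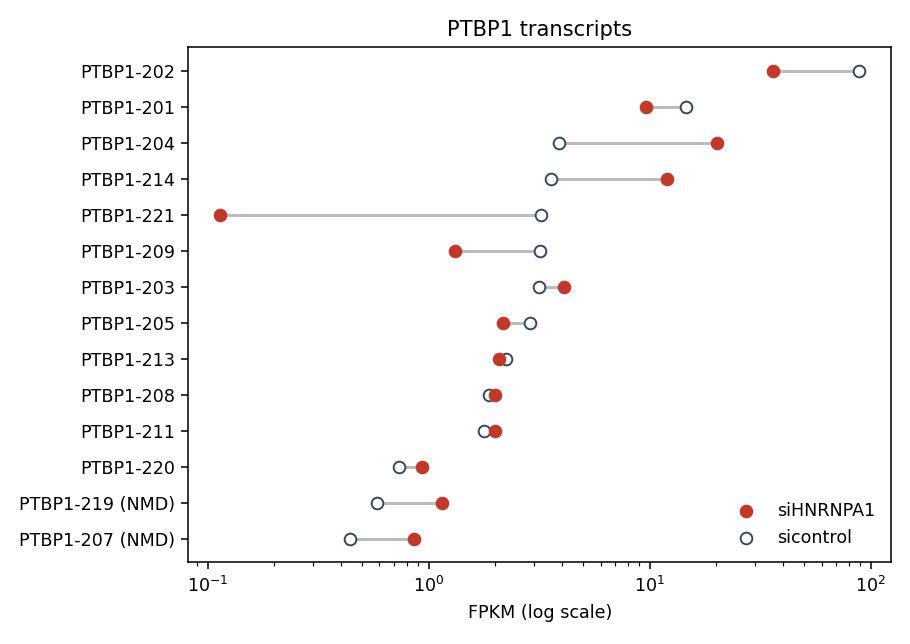
FPKM (log axis) of the 14 PTBP1 transcripts in siHNRNPA1 cells (red, filled) and sicontrol cells (open), 1 library each, ordered by the sicontrol level. PTBP1-202 is lower in siHNRNPA1 cells (36.2 against 88.8 FPKM) and PTBP1-204 higher (20.1 against 3.89 FPKM).

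Grouped by the alternative exon printed first above, 8 PTBP1 transcripts spanned its place. The 5 transcripts with the 78-nt form summed to 43.3 FPKM in siHNRNPA1 cells and 97.5 FPKM in sicontrol cells. They made up 58.4% of the FPKM of the spanning transcripts in siHNRNPA1 cells and 83.6% in sicontrol cells. The 57-nt form, which lacks the 21 nt in capitals, made up 27.1% in siHNRNPA1 cells and 3.34% in sicontrol cells. In estimated counts the 57-nt form had 2130 of 7458 in siHNRNPA1 cells (28.6%, exact binomial 95% interval 27.5 to 29.6%) and 385 of 11067 in sicontrol cells (3.48%, 3.15 to 3.84%). These intervals do not include errors in dividing reads among transcripts.

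The share of the skipping transcripts was nearly the same, at 14.5% of FPKM in siHNRNPA1 cells and 13.04% in sicontrol cells. In counts it was 14.1% (13.3 to 14.9%) in siHNRNPA1 cells and 13.1% (12.5 to 13.8%) in sicontrol cells. Few bases separate these forms. In windows of 50 bases, 48 windows occurred only in the transcript with the 57-nt form and 47 only in transcripts that skip the exon. The transcripts with the 78-nt form together had 576 windows found in no transcript of the other forms, which need not lie at the exon. Taken singly, PTBP1-221 had 140 windows found in no other PTBP1 transcript of the table, PTBP1-208 had 47, PTBP1-202 had 4, and PTBP1-203 and PTBP1-207 had 0.

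**Figure D4:**
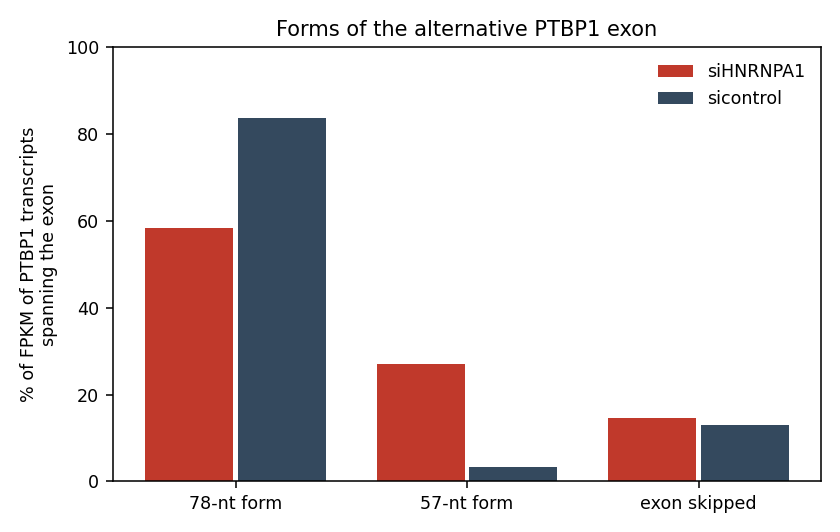
Share of the 78-nt form, the 57-nt form and skipping of the alternative PTBP1 exon, as percent of the FPKM of the 8 transcripts that span it, in siHNRNPA1 cells (red) and sicontrol cells (dark), 1 library each. The 57-nt form takes 27.1% in siHNRNPA1 cells and 3.34% in sicontrol cells, and skipping 14.5% and 13.04%.

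The 34-nt exon of PTBP1, through which the gene is known to limit itself, was included in nearly all of the signal. Since skipping is known to send the RNA to NMD, the shares below describe RNA that was present. How often the exon was skipped was not tested. Transcripts that include it summed to 70.2 FPKM in siHNRNPA1 cells and 113.7 FPKM in sicontrol cells. The 3 spanning transcripts without it summed to 4.01 FPKM in siHNRNPA1 cells and 2.91 FPKM in sicontrol cells, which is 5.40% and 2.496% of the spanning transcripts. In estimated counts skipping took 124 of 7458 in siHNRNPA1 cells (1.66%, 1.38 to 1.98%) and 81 of 11067 in sicontrol cells (0.732%, 0.582 to 0.909%). The share in FPKM is larger than in counts because all 3 entries are short and lack an annotated start.

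Of these 3 entries, PTBP1-219 and PTBP1-207 are annotated as targets of NMD, while PTBP1-208 is annotated as coding and also lacks the first bases of the next exon. PTBP1-219 had 43 counts in siHNRNPA1 cells and 21 in sicontrol cells, and PTBP1-207 had 30 and 15. Neither PTBP1-219 nor PTBP1-207 has a window of 50 bases of its own.

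PTBP2 in sicontrol cells was almost wholly 1 transcript, and that transcript was listed at 0 in siHNRNPA1 cells. PTBP2-203, with the 140-nt form of the exon printed above (96721822 to 96814793), had 0 estimated counts in siHNRNPA1 cells and 806 in sicontrol cells, where it stood at 8.59 FPKM and 93.1% of the gene. A count of 0 among the 104 of the gene allows a share of up to 2.88%. Against a floor of 3 counts in siHNRNPA1 cells the share of all counts was at least 283-fold lower, by counting error alone. A listed 0 can also come from how reads were divided, since PTBP2-203 has 0 windows of 50 bases that no other PTBP2 transcript holds.

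The other PTBP2 transcripts held 104 counts together in siHNRNPA1 cells and 171 in sicontrol cells. PTBP2-202, which differs from PTBP2-203 by the added 15 nt and by a slightly earlier start, had 58 counts and 0.569 FPKM in siHNRNPA1 cells, against 12 counts and 0.117 FPKM in sicontrol cells. PTBP2-211, whose last exon is far longer, had 45 counts in siHNRNPA1 cells and 146 in sicontrol cells. PTBP2-201, with the added 15 nt, had 1 count in siHNRNPA1 cells and 13 in sicontrol cells.

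Transcripts with the 15-nt addition made up 59 of 104 PTBP2 counts in siHNRNPA1 cells (56.7%, 46.7 to 66.4%) and 25 of 977 in sicontrol cells (2.56%, 1.66 to 3.75%). In FPKM they made up 83.7% in siHNRNPA1 cells and 2.68% in sicontrol cells. The other 45 counts in siHNRNPA1 cells were all of PTBP2-211, which has the 140-nt form that leads in sicontrol cells. Of the 11965 windows of PTBP2-211, 8972 occur in no other PTBP2 transcript. Its counts therefore need not come from the exon, and whether the 140-nt form was present in siHNRNPA1 cells was not tested. All 4 PTBP2 transcripts of the table include the 34-nt exon, and its skipping was not analysed here.

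PTBP3 showed the same arrangement. PTBP3-205, a coding transcript of 7240 nt (112218435 to 112333667), had 0 counts in siHNRNPA1 cells and 3044 in sicontrol cells, where it stood at 13.5 FPKM and 95.4% of the gene. Against the floor of 3 counts its share of all counts was at least 1070-fold lower by counting error alone. By the exact binomial 95% interval, 0 of the gene's 50 counts allows a share of up to 7.11%. PTBP3-203 and PTBP3-204 were also listed at 0 in siHNRNPA1 cells, against 29 and 31 counts in sicontrol cells. PTBP3-201 and PTBP3-206, entries with no annotated 3′ end, were at 0 in both.

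What was left of PTBP3 in siHNRNPA1 cells lay in the longest transcripts. PTBP3-207, which starts from another first exon, had 42 counts in siHNRNPA1 cells and 1 in sicontrol cells. PTBP3-202, which starts upstream as PTBP3-205 does but includes an extra exon after the first, had 8 counts in siHNRNPA1 cells and 6 in sicontrol cells. PTBP3-205 has 3 windows of 50 bases that occur in no other PTBP3 transcript of the table, and PTBP3-207 and PTBP3-202 have 0. Taken with an entry at 0 in both libraries that also starts from another first exon, PTBP3-207 has 246 windows found in no transcript of the other forms.

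**Figure D5:**
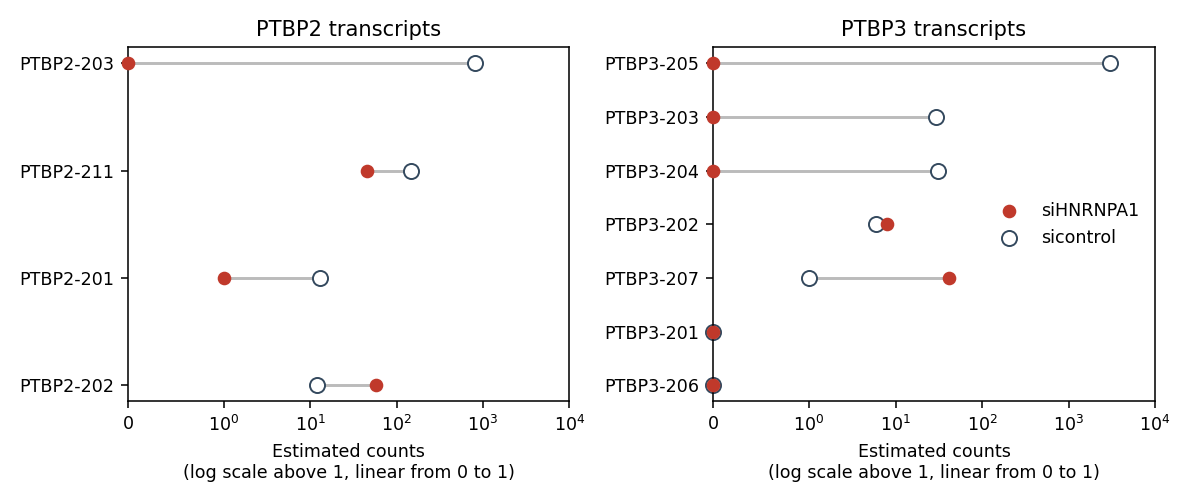
Estimated counts of the PTBP2 and PTBP3 transcripts in siHNRNPA1 cells (red, filled) and sicontrol cells (open), 1 library each, on an axis that is linear from 0 to 1 and logarithmic above. PTBP2-203 and PTBP3-205 lie at 0 in siHNRNPA1 cells and at 806 and 3044 counts in sicontrol cells.

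How often a leading transcript was listed at 0 was counted over the table. Among 4974 genes whose leading sicontrol transcript had at least 8 FPKM, a level chosen after the values were seen, 183 (3.68%) had that transcript at 0 counts in siHNRNPA1 cells. PTBP2 and PTBP3 enter this set through their sicontrol level and were picked for low siHNRNPA1 levels. The 3.68% therefore does not measure how unusual they are. In 59 of the 183 the gene total stayed within 2-fold, while in 58, PTBP2 and PTBP3 among them, it was at least 4-fold lower. A leading transcript at 0 by itself lowers the gene total, so low totals among the 183 are in part built in. Of the 11921 genes with a mean of at least 1 FPKM, 3.29% were at least 4-fold lower. That is another set of genes, and the 2 values do not measure an excess. Counted over single transcripts of at least 8 FPKM, 3.54% of those in sicontrol cells were at 0 in siHNRNPA1 cells, and 1.88% the other way round.

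The genes nearest to PTBP2 in the plane of log2(FPKM + 1) of the 2 libraries were TNRC6C, a partner of Argonaute proteins in microRNA silencing (0.672 FPKM in siHNRNPA1 cells and 8.93 in sicontrol cells), the atypical cadherin FAT3 (0.673 and 8.86 FPKM) and TBCK (0.708 and 8.64 FPKM). Exons of TNRC6C and TBCK overlap another gene on the opposite strand, and whether reads were counted by strand is not given in the sources used here. Nearest to PTBP3 were PUM2, a Pumilio repressor of messenger RNAs (0.462 and 14.3 FPKM), the Golgi mannosidase MAN2A1 (0.464 and 14.6 FPKM) and the bicarbonate cotransporter SLC4A7 (0.493 and 13.6 FPKM). These likenesses rest on 2 libraries. The distances were 0.0426 to 0.0886 log2 units for PTBP2 and 0.301 to 0.337 for PTBP3.

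Among 22 proteins that work with PTB proteins, compete for their sites or are otherwise known splicing regulators of the same exons, 20 had a mean of at least 1 FPKM. Of these, 9 (45%) were at least 2-fold lower in siHNRNPA1 cells, against 21.9% of all genes, and 0 at least 2-fold higher, against 12.4%. QKI, CELF2 and MBNL1, counted among the 9, were under 1 FPKM in siHNRNPA1 cells (0.9999, 0.881 and 0.568 FPKM). They were kept only through their sicontrol levels (10.1, 3.50 and 2.34 FPKM). The list median was -0.59, against -0.13 over all genes. QKI, a regulator of splicing in glia and muscle, had 1.00 FPKM in siHNRNPA1 cells and 10.1 FPKM in sicontrol cells (log2 fold -2.48). MATR3, a nuclear matrix protein that binds PTBP1, had 36.0 and 155.8 FPKM (-2.08) over its 2 overlapping entries.

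RAVER2, a PTB-binding protein related to the PTBP1 corepressor RAVER1, had 3.15 FPKM in siHNRNPA1 cells and 12.5 FPKM in sicontrol cells (-1.70). CELF1, a regulator that binds GU-rich RNA, had 12.98 and 34.3 FPKM (-1.34). RAVER2 and CELF1 overlap genes on the opposite strand. RAVER1 itself, named after its value was seen, was on the other side, with 34.7 FPKM in siHNRNPA1 cells and 21.7 FPKM in sicontrol cells (0.65), and it overlaps another gene on the same strand. With the GC content and length fit subtracted, 3 of the 20 were at least 2-fold lower, namely QKI at -2.70, MATR3 at -1.46 and HNRNPH1, which encodes a regulator that binds G-rich RNA, at -1.16. Under the same fit 9.46% of all genes lay 2-fold or more lower and 8.53% higher. RAVER2 then stood at -0.88 and CELF1 at -0.50.

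Of 24 genes with exons that PTB proteins are reported to regulate, 23 had a mean of at least 1 FPKM. Among them 7 (30.4%) were at least 2-fold lower in siHNRNPA1 cells and 1 (4.35%) at least 2-fold higher, against 21.9% and 12.4% of all genes. The list median was -0.45, against -0.13 over all genes. The lowest were DST, which encodes the cytoskeletal linker dystonin (6.59 FPKM in siHNRNPA1 cells and 38.2 FPKM in sicontrol cells, -2.37), and the caspase gene CASP2 (1.44 and 9.46 FPKM, -2.10). PTK2, which encodes focal adhesion kinase, stood at -1.83 and the kinesin gene KIF1B, which overlaps a small RNA pseudogene on its strand, at -1.70. The gene past 2-fold on the higher side, named after its value was seen, was the clathrin light chain gene CLTA (188 and 70.3 FPKM, 1.41). With the GC content and length fit subtracted, 5 of the 23 were at least 2-fold lower and 0 higher, against 9.46% and 8.53% of all genes. DST then stood at -2.02, CASP2 at -1.66, PTK2 at -1.74, KIF1B at -0.69 and CLTA at 0.96.

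Transcript shares bear more directly on splicing. Of the 24 genes, 20 reached 5 FPKM in both libraries with 2 or more transcripts, and in 11 of them (55%) a transcript share differed by at least 20 percentage points, against 40.6% of all such genes. MEF2D-201, of the muscle and neuron transcription factor gene MEF2D, made up 82.6% of its gene's FPKM in siHNRNPA1 cells and 0.823% in sicontrol cells. GABBR1-203, of the GABA-B receptor gene, made up 83.1% in siHNRNPA1 cells and 5.67% in sicontrol cells. Exons of GABBR1 overlap other genes on both strands.

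MAP4K4-201, of a kinase gene, had 60.2% of its gene's FPKM in siHNRNPA1 cells and 1.22% in sicontrol cells. CLTB-202, of the other clathrin light chain gene, had 45.8% in siHNRNPA1 cells and 95.02% in sicontrol cells. Whether any of these shares differ at an exon bound by a PTB protein was not tested.

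The markers of the labelled cell type were present. All 10 markers of pluripotent cells had a mean of at least 1 FPKM and summed to 2548 FPKM in siHNRNPA1 cells and 2550 FPKM in sicontrol cells. Of the 10, 3 were lower by 2-fold or more, which were DPPA4 (119 and 346 FPKM), PODXL (102 and 312 FPKM) and SOX2 (58.3 and 126 FPKM), and 0 higher, against 21.9% and 12.4% of all genes. POU5F1, the pluripotency factor with the highest level of the list, had 1355 FPKM in siHNRNPA1 cells and 864 FPKM in sicontrol cells, so the near-equal sums do not stand for near-equal genes. Because PTBP2 is a neuronal gene, markers of neurons stand beside it. Of 10, 6 had a mean of at least 1 FPKM, and the list summed to 135.6 FPKM in siHNRNPA1 cells and 65.5 FPKM in sicontrol cells. ELAVL4, which encodes a neuronal RNA-binding protein, was listed at 0 in both libraries. TUBB3, which encodes a neuronal tubulin (85.2 FPKM in siHNRNPA1 cells and 20.4 FPKM in sicontrol cells), and SYP, which encodes the synaptic vesicle protein synaptophysin (25.8 and 3.18 FPKM), were at least 2-fold higher. STMN2 (0.354 and 3.40 FPKM) and SYT1 (2.98 and 10.4 FPKM) were at least 2-fold lower. RBFOX3 (19.3 and 25.7 FPKM), the highest of the list in sicontrol cells, and MAP2 (0.873 and 1.31 FPKM) were within 2-fold. That makes 2 lower and 2 higher of 6, against 21.9% and 12.4% of all genes. The higher sum in siHNRNPA1 cells came mainly from TUBB3 and SYP. The marker values are given without the GC content and length fit. The part of this list in the PTBP2 level was not tested. For PTBP3, all 5 markers of blood cells were under 1 FPKM in both libraries, and GATA1 was listed at 0 in both. Of 7 fibroblast markers 4 had a mean of at least 1 FPKM, none of them past 2-fold, and COL3A1, DCN and LUM were listed at 0 in both. The list summed to 218 FPKM in siHNRNPA1 cells and 264 FPKM in sicontrol cells. THY1 alone held 181 and 233 FPKM of these sums, so they do not stand for the list as a whole.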

How the data were processed

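Per the labels' protocols, column-purified total RNA was made into messenger RNA libraries for Illumina sequencing. Per the file headers, the authors deposited 3 values for every transcript in each library, a count, its TPM and its FPKM. The deposited counts are whole, but overlapping transcripts each carry counts, so they were treated as estimated counts. Which aligner and quantifier were used is not given in the sources used here. Mouse builds (GRCm38, mm10) stand in the submitters' processing notes, while the table holds human identifiers, of which 95033 are in GENCODE release 29 (GRCh38). The 25 PTBP transcripts have the same positions there. The table's 6 further per-sample columns match neither library and were not used. Gene values are sums over transcripts (Python 3.11.15, pandas 2.3.3, scipy 1.17.1). A gene was counted from 2-fold on. With 1 library per condition no test was made. Fold recovery was checked on simulated counts. The named genes are the PTBP genes, their transcripts, the 4 members of each list with the largest differences and the 3 genes nearest to PTBP2 and to PTBP3. The members and lists were chosen with earlier results of these data known.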

Additional observations from a re-analysis of the deposited data

How the results depend on the processing

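Each condition had 1 library, so the range of values below covers processing choices only. No paired analysis was possible because each condition had 1 library, and for the same reason no library could be left out. PTBP1, PTBP2 and PTBP3 were lower in the siHNRNPA1 library under every setting run, but the size depended on the setting. For PTBP1 (log2 fold -0.46) the values were -0.62 in TPM, -0.59 in CPM, -0.31 after median ratio scaling, -0.62 with FPKM rescaled to 1 sum, -0.64 with the GC content and length fit subtracted and -0.68 over the transcripts with both ends annotated, a setting chosen after the data were seen. For PTBP2 (-2.61) they were -3.58 with a pseudocount of 0.1 FPKM, -1.32 with one of 5 FPKM, -3.17 in TPM, -3.002 in CPM, -3.16 with FPKM rescaled and -1.62 with the fit subtracted. For PTBP3 (-3.68) they were in the same order -5.64, -1.89, -4.52, -5.40, -4.52 and -2.26. PTBP1 stayed within 2-fold, and PTBP2 and PTBP3 past it, under these settings.

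With the fit subtracted, the lower genes of the cofactor list numbered 3 in place of 9, while those of all genes numbered 1127 in place of 2609. The higher genes of the splice target list numbered 0 in place of 1, and those of all genes 1016 in place of 1480. Median ratio scaling gave 1 higher cofactor gene in place of 0, and 1904 higher genes of all in place of 1480. As shares of estimated counts, the differences in percentage points were -27.9 for PTBP1-202, 23.5 for PTBP1-204, 0.0738 for PTBP1-201 (-1.02 in FPKM), -82.5 for PTBP2-203 and 54.5 for PTBP2-202 (82.3 in FPKM). PTBP3-207 stood at 83.9 points, and at 99.998 when only transcripts with at least 10 counts in one library were summed. With a limit of 10 points 18 splice target genes were counted in place of 11, and 62.5% of all genes in place of 40.6%. The 104 and 50 counts of PTBP2 and PTBP3 in the siHNRNPA1 library limit what can be said of their transcripts.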
